A study of Rattus norvegicus with 2 samples.

Results

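Mast cell genes were compared between 2 pools of RNA from the skin of Sprague Dawley rat fetuses. The E16 pool held 4 samples taken at day 16.5 and the E19 pool held 3 samples taken at day 18.5; no treatment or genetic change is labelled for either. Both pools were hybridised together to 2 Agilent arrays with the dyes exchanged: on one array E19 was in Cy5 and E16 in Cy3, and on the other E19 was in Cy3 and E16 in Cy5. Genes were found by the name printed in the array files. Of the 10 genes listed as mast cell genes, 9 were found by that rule: Cpa3, Tpsab1, Hdc, Ptgds2, Ms4a2, Fcer1a, Kit, Cma1 and Mcpt2. The tenth, Tpsb2, stood in the files under its older name Mcpt6 and was found through its RefSeq accession, so 10 genes with 13 probes are described, of 18347 named genes on the array.

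Mast cells come from blood-forming progenitors that enter tissues and mature there under the KIT receptor and its ligand. Their granules hold proteases of the tryptase, chymase and carboxypeptidase types together with histamine, bound to heparin. IgE held by a high-affinity receptor on the cell surface triggers their release, and lipid mediators such as prostaglandin D2 are made at the same time. Skin is one of the tissues in which mast cells are common, mainly of the connective tissue type, while gut mucosa holds a type with other proteases.

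Because each stage is 1 pool, there is no test between the stages and no spread between animals or litters. Values are log2 ratios of E19 over E16 on each array, with their mean and SD, so that the SD covers only the technical spread of the dye swap. The number of arrays limits the precision. A gene counted as called when the dye orientations both put it 2-fold or more towards the same stage. A gene was detected when it was well above background on both arrays in at least 1 pool. Per pool and array, 71.5% to 74.3% of spots stood well above background. As a check of the labelled tissue, 11 of 11 genes that mark keratinocytes and dermal fibroblasts were detected. Of these, 3 were called higher in E19 (Krt5, Krt10 and Dcn), beside 4.14% of all detected genes. The median log2 ratio of the 11 was 1.11, with an SD of the arrays of 0.32. Krt10 stood at 2.60 for E19 in Cy5 and 1.13 for E19 in Cy3, and had no value with saturated spots left out. All 3 calls were lost with median centring in place of loess. Krt5, Krt10 and Dcn then stood at 0.19, -0.016 and 0.53 for E19 in Cy3 and at 2.02, 3.69 and 2.16 for E19 in Cy5. The calls of Krt5 and Krt10 were also lost when ratios were centred on spike-in RNAs (0.89 and 0.92 for E19 in Cy3).

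Of the 9 mast cell genes detected, 6 were called higher in E19: Ptgds2, Cpa3, Tpsb2, Hdc, Ms4a2 and Cma1. By the file-name rule alone, which leaves out Tpsb2, it was 5 of 8. Among all 14791 detected genes, 4.14% were called in that direction. No mast cell gene was called higher in E16 (0 of 9), against 3.75% of all detected genes. The other 3 detected genes, Tpsab1, Kit and Mcpt2, had ratios between -0.24 and -0.028, and Fcer1a was not well above background in either pool. The median log2 ratio of the 9 genes was 1.14, beside 0.02 over all detected genes. The list was chosen with earlier results of these data known, so these counts and medians only describe it. In RNA from whole tissue, more mast cells and more transcript per mast cell cannot be told apart.

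**Figure D1:**
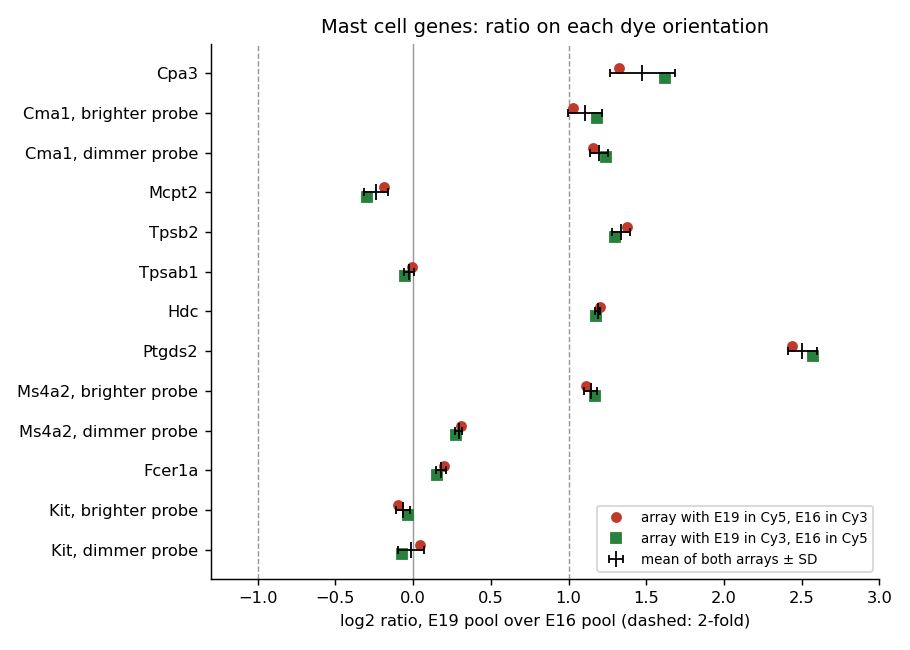
Log2 ratio of the E19 pool over the E16 pool for each of the 13 probes of the mast cell genes, for E19 in Cy5 (circles) and E19 in Cy3 (squares), with bars for mean and SD. Ptgds2 lies near 2.50, the other called genes lie between 1.1 and 1.47, and the means of Tpsab1, Kit and Mcpt2 lie below 0; Fcer1a is drawn although it was not well above background.

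Other limits gave like or lower counts. At 1.5-fold on both arrays 6 of 9 were higher in E19 (9.55% of all detected genes) and 0 of 9 in E16 (7.69%). At 3-fold 1 of 9 was higher in E19, which was Ptgds2 (1.20% of all detected genes), and 0 of 9 in E16 (1.55%).

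The granule proteases divided into those higher in E19 and those at a like level in both pools. Cpa3 encodes mast cell carboxypeptidase A, a protease that is stored with heparin in the granule. Its normalised log2 intensity was 11.43 and 11.65 in the E16 pool (Cy3 and Cy5) and 12.76 and 13.28 in the E19 pool (Cy5 and Cy3). Both E19 readings lay above both E16 readings. The ratio was 1.33 for E19 in Cy5 and 1.62 in the swapped dyes, a mean of 1.47 ± 0.21 or 2.78-fold, and this was the widest gap between the arrays among the mast cell genes.

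Cma1, the chymase also named Mcpt5, was measured by a pair of probes for the same accession. The brighter probe read 13.28 and 13.08 in E16 and 14.30 and 14.26 in E19, with ratios of 1.03 and 1.18 and a mean of 1.1 ± 0.11 (2.15-fold). The dimmer probe read 11.55 and 11.62 in E16 and 12.71 and 12.86 in E19, with ratios of 1.16 and 1.24 and a mean of 1.20 ± 0.057 (2.29-fold). Both probes were past 2-fold on both arrays, with no overlap between the pools. The pools did not overlap either for Mcpt2 and the brighter Kit probe, which were not called. A lack of overlap therefore does not set the called genes apart.

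Mcpt2 is the file name of a probe for rat mast cell protease II, a chymase known from mucosal mast cells. RefSeq now gives its accession the symbol Mcpt1 with the older names rMCP-2 and rMCP-II, and the gene has near-identical relatives, so its identity is uncertain. It read 10.57 and 10.66 in E16 and 10.39 and 10.36 in E19. The ratios were -0.18 and -0.29, a mean of -0.24 ± 0.078, which is 1.18-fold towards E16 and far from the 2-fold limit. Cma1 exceeded it by 1.21 on one array and 1.48 on the other on the scale of log2 ratios.

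Tpsb2 and Tpsab1 encode the tryptases also known as Mcpt6 and Mcpt7, and RefSeq places them next to each other on chromosome 10. Tpsb2 read 8.51 and 8.62 in the E16 pool and 9.89 and 9.92 in the E19 pool. Its ratio was 1.38 and 1.30, a mean of 1.34 ± 0.057 or 2.53-fold. Tpsab1 read 11.48 and 11.56 in E16 and 11.47 and 11.51 in E19, so its pools overlapped. The ratios of Tpsab1 were -0.0041 and -0.052, with a mean of -0.028 ± 0.034.

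The 2 tryptases differed in their stage ratio by 1.38 on one array and 1.35 on the other (mean 1.37 ± 0.024). Each was measured by 1 probe whose sequence is not in the files used here, so how far a probe reads its neighbour is unknown. Their neighbours Tpsg1 and Prss34, genes of the same protease family, were not detected.

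**Figure D2:**
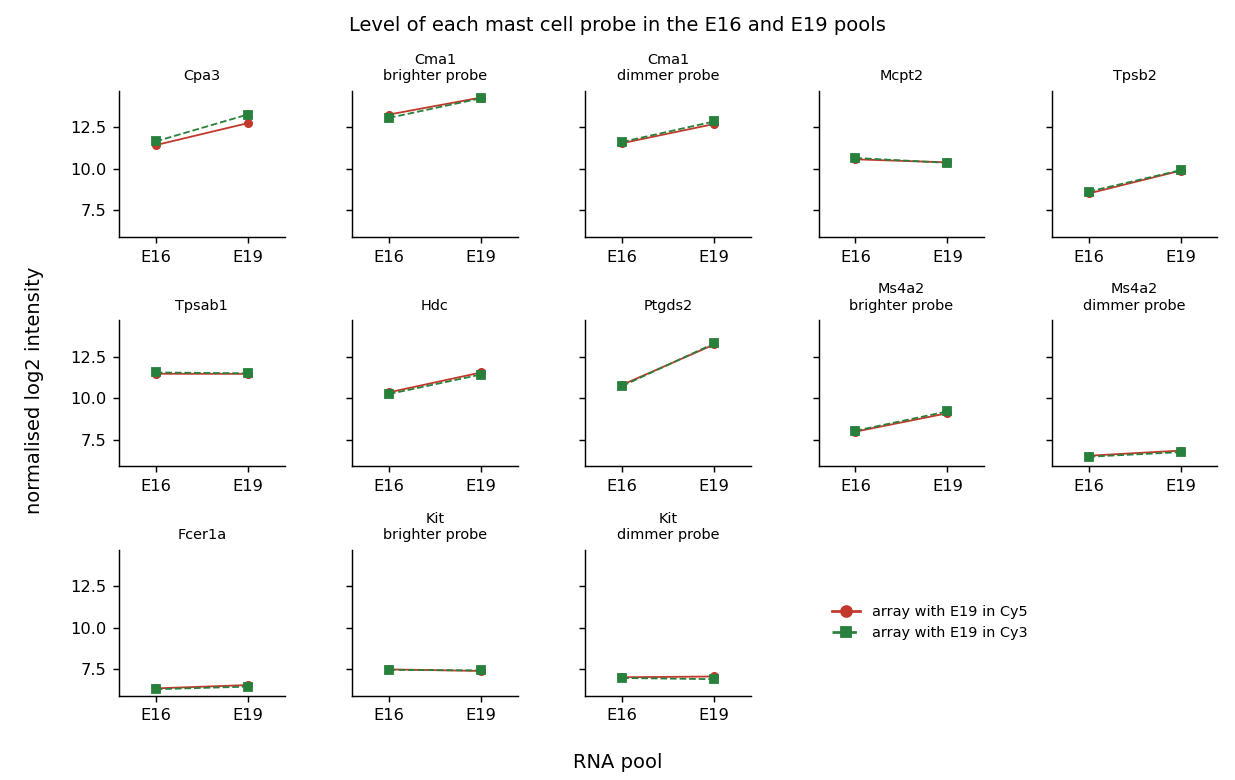
Normalised log2 intensity of each probe in the E16 and E19 pools, with one line per array (solid for E19 in Cy5, dashed for E19 in Cy3). Lines rise from E16 to E19 for Cpa3, both Cma1 probes, Tpsb2, Hdc, Ptgds2 and the brighter Ms4a2 probe, and are near level for Tpsab1, Kit and Mcpt2; levels of different probes are not comparable.

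Promoter sequences are shown for 4 of the granule proteases, picked by their calls and leaving out Mcpt2, which was not called. Those of Cpa3, Cma1 and Tpsb2, which were higher in E19, are set beside that of Tpsab1, which was not. They are the 250 bases before the gene's start in the RefSeq promoter table, build GRCr8, written 5′ to 3′ along the gene's strand: Cpa3 at chr2:104673238-104673487 (minus strand), Cma1 at chr15:33390134-33390383 (minus strand), Tpsb2 at chr10:14886060-14886309 (plus strand) and Tpsab1 at chr10:14867303-14867552 (minus strand). Capitals mark matches, on either strand, to the GATA factor motif (AGATAA or TGATAA) and to an E-box form that MITF binds (CACGTG or CATGTG).
Cpa3: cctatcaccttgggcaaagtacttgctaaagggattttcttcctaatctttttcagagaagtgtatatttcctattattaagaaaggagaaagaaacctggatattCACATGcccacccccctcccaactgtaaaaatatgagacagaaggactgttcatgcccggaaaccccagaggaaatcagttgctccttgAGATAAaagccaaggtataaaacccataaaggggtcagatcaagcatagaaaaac
Cma1: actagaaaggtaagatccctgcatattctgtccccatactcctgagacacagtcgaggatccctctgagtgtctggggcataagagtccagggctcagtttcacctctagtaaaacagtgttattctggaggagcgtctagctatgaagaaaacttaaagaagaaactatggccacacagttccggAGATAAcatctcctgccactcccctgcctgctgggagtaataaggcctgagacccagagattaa
Tpsb2: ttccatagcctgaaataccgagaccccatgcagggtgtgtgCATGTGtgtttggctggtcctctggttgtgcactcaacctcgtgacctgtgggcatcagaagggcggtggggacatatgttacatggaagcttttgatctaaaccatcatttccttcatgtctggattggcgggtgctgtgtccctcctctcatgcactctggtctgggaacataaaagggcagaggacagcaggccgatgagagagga
Tpsab1: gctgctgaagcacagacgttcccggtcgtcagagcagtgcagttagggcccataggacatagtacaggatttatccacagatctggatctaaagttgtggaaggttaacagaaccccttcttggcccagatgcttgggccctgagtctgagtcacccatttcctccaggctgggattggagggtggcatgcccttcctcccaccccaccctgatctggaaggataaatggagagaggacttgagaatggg

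GATA2 and MITF are transcription factors that mast cells use, which is why these letters were searched. In Cpa3 the GATA letters began 55 bases before the start and in Cma1 64 bases before it, both along the gene's strand. Cpa3 also held the E-box letters on the opposite strand, 144 bases before the start, and Tpsb2 held them 209 bases before it. The Tpsab1 window held neither. The windows of Hdc, which was called, and of Kit, which was not, also held neither. Of the 10 genes, 8 were in the promoter table, all but Ptgds2 and Ms4a2. The GATA letters were in 4 of the 8 (50%), against 16.6% of all 27457 promoters of the same length, and the E-box letters in 3 of the 8 (37.5%), against 17.0%. The GATA matches included Mcpt2 and Fcer1a, which were not called, and the E-box matches also included Fcer1a. Cpa3 and Fcer1a held both motifs, at positions that did not overlap. These are matches of letters, not measured sites.

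Of the genes that make mast cell mediators, Ptgds2 had the largest ratio. Ptgds2, now Hpgds in RefSeq, encodes the haematopoietic prostaglandin D synthase, which makes prostaglandin D2 in mast cells and some other leukocytes. It read 10.81 and 10.74 in the E16 pool and 13.25 and 13.31 in the E19 pool. Both E19 readings stood well above both E16 readings. The ratio was 2.44 and 2.57, a mean of 2.50 ± 0.096 or 5.67-fold, and it ranked 36 from the top among 14791 genes.

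Hdc encodes histidine decarboxylase, the single enzyme that makes histamine. It read 10.36 and 10.26 in E16 and 11.56 and 11.43 in E19, without overlap. Its ratios of 1.20 and 1.18 were the closest pair among the genes called, and the mean was 1.19 ± 0.017 or 2.28-fold.

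The receptor genes differed among themselves. Ms4a2 encodes the beta chain of the high-affinity IgE receptor, which strengthens its signal. Its brighter probe read 7.98 and 8.04 in E16 and 9.10 and 9.21 in E19, with ratios of 1.11 and 1.17 and a mean of 1.14 ± 0.040 (2.21-fold). Its dimmer probe, for the same accession, missed the well-above-background mark for E16 on both arrays. That probe read 6.53 and 6.47 in E16 and 6.84 and 6.75 in E19 and was at least 1.22-fold higher in E19, the level in E16 being taken per array as the higher of its own and the lowest among well-measured probes. The 2 probes pointed the same way but only the brighter passed the limit, and the mean over both probes was 0.72.

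Fcer1a encodes the alpha chain that binds IgE. Its spot brightness before correction was 42.3 over a local background of 35.5 for E16 in Cy3 and 70.4 over 54.5 for E16 in Cy5. In E19 it was 85.5 over 56.5 in Cy5 and 47.6 over 34.0 in Cy3. No reading was well above background, so no ratio is given for it from the arrays. The authors' deposited table lists it at 2.11-fold, which rests on the same dim spots.

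Kit encodes the receptor for stem cell factor and is also used by melanocytes and germ cells. Its brighter probe read 7.48 and 7.45 in E16 and 7.39 and 7.42 in E19, with ratios of -0.095 and -0.033 and a mean of -0.064 ± 0.043. The dimmer probe read 7.01 and 6.96 in E16 and 7.05 and 6.89 in E19, with a mean of -0.014 ± 0.083 and overlapping pools. Both Kit probes were well above background in all 4 readings, but their spots stood only a few times above the local background: the brighter read 103 over 33.5 for E16 in Cy3 and 92.9 over 35 for E19 in Cy3. Ms4a2 exceeded Kit by 1.21 on the scale of log2 ratios. Of 12 melanocyte genes, 8 were detected with a median of 0.67, and 2 were higher in E19, beside 4.14% of all detected genes. The 2 were Tyrp1 (1.63 ± 0.19) and Mlana (1.26 ± 0.16). The Mlana call was lost when ratios were centred on spike-in RNAs (0.94 and 1.16). The summed normalised intensity of the 8 melanocyte genes was 5035 to 5155 in E16 and 6797 to 6808 in E19. Dct and Slc45a2 were not detected. The part of melanocytes in the Kit signal was not tested.

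**Figure D3:**
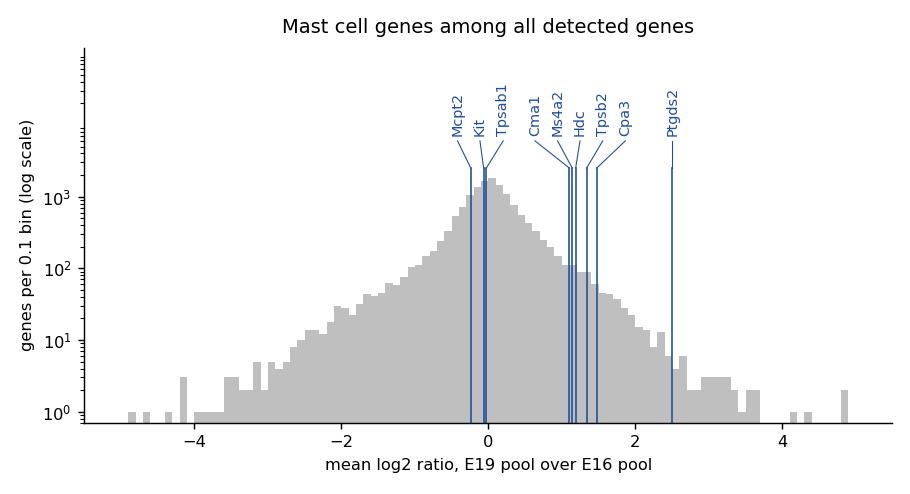
Number of detected genes (log scale) by mean log2 ratio of E19 over E16 in bins of 0.1, with a blue line for each of the 9 detected mast cell genes. Ptgds2 at 2.50 stands far to the right, 5 genes stand between 1.1 and 1.47, and Tpsab1, Kit and Mcpt2 stand in the centre.

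Of 21 other genes of mast cell granules, 18 had a probe, 14 were detected and 0 were called in either direction, beside 4.14% (E19) and 3.75% (E16) of all detected genes. Their median was 0.12 and their range ran from -0.54 to 1.07. The files name 2 detected probes Mcpt1, which differed in direction and are described here after their values were seen. The first was the highest of these genes, with ratios of 1.18 and 0.97, and missed the limit on the array with E19 in Cy3. The second, whose accession RefSeq now names Vch, had ratios of -0.52 and -0.45 and was not well above background in E19. RefSeq now uses the symbol Mcpt1 for the accession of the Mcpt2 probe, so which gene the first probe reads is uncertain. Of 14 probes with the names Cma1 or Mcpt, apart from the tryptase Mcpt6, 13 were detected and 2 were higher in E19, both of them Cma1. Mcpt4, a chymase near Cma1 on the same chromosome, was at 0.08 ± 0.047, and Mcpt8 and Mcpt9 were at 0.026 ± 0.071 and -0.32 ± 0.094. The Mcpt4 probe read only 6.70 to 6.83 over both pools, so low signal limits its ratio. These genes have close copies, so cross-reading between probes is possible.

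Of 24 genes that carry the signal of the IgE receptor and of KIT, 21 were detected. In either direction 0 were called, beside 4.14% (E19) and 3.75% (E16) of all detected genes. Their median was 0.44, and 19 of the 21 were above 0, beside 52.5% of all detected genes. Their values ran from -0.47 for the transcription factor gene Stat5a to 0.82 for the kinase gene Lyn, both named after their values were seen. Growth factor, cytokine receptor and transcription factor genes had a median of 0.31 over 17 detected of 23. Cebpa, a myeloid and fat cell transcription factor, was higher in E19 (1.47 ± 0.26). Il1rl1, the receptor for interleukin 33, was higher in E16 (-1.04 ± 0.028, 2.06-fold). The Il1rl1 call was lost when all its detected probes were averaged (-0.48) and with median centring in place of loess (-0.63 and -1.58). Kitlg, which encodes the KIT ligand, was at 0.73, Gata2 at 0.31 and Mitf at 0.41, none of them called and all named for their roles. The Mitf probe read 6.63 and 6.86 in E16 and was well above background there on only 1 array, so low signal limits its ratio. The interleukin genes Il3, Il4, Il9 and Il13, which encode cytokines that feed or come from mast cells, were not detected.

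Calls in the lists of this paragraph are to be read beside 4.14% (E19) and 3.75% (E16) of all detected genes. Of 9 genes for histamine receptors and removal, 4 were detected and 0 were called. Their median was 0.48 (1.21 both with Feature Extraction's processed signals and in the authors' deposited table). Of 13 eicosanoid genes, 11 were detected, with a median of 0.07. Ptgds was the single one called, higher in E16 at -2.07 ± 0.012 (4.19-fold). It encodes the lipocalin type of prostaglandin D synthase, which makes the same product as Ptgds2, so the 2 synthase genes stood on opposite sides. Among other surface and regulator genes, 12 of 18 were detected with a median of 0.26. Itgb7, an integrin chain of mast cell progenitors and lymphocytes, was called at 1.54 ± 0.041 (2.90-fold).

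Markers of other leukocytes are given beside these results, to be read against the 4.14% of all detected genes called towards E19. Of 12 pan-leukocyte genes 11 were detected and 0 called, with a median of 0.65 and values from -0.10 to 0.85. The summed intensity of the pan-leukocyte genes was 87880 to 95250 in E16 and 121100 to 134800 in E19. Of 12 detected macrophage genes 2 were called towards E19, Lyz2 and Cd163. The values of the 12 ran from -0.25 to 1.64 with a median of 0.53, and the Lyz2 call was lost with median centring in place of loess (2.28 and 0.95). The macrophage genes had a sum of 116500 to 121900 in E16 against 184800 to 190500 in E19. Of 9 detected T and NK cell genes 4 were called towards E19, with values from 0.085 to 2.68 and a median of 1.12 (1.78 with Feature Extraction's processed signals and 1.77 in the authors' deposited table), a sum of 2323 to 2378 against 5081 to 5443, and Cd3e and Cd4 not detected. Of 7 detected neutrophil and early myeloid genes 2 were called towards E19, S100a8 and S100a9, with a median of 0.82 and a sum of 5052 to 5077 against 27560 to 29030. Most of this sum came from S100a8 and S100a9, which read 13.37 to 14.05 in E19. Camp, the next highest, reached 9.27 there, and the ratios of the genes not called ran from 0.074 to 0.86. Ltf and Ngp were not detected. Skin also holds S100a8 and S100a9 in keratinocytes, and Ptgds2 is used by some macrophages. The part of these cells in the mast cell results was not tested.

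**Figure D4:**
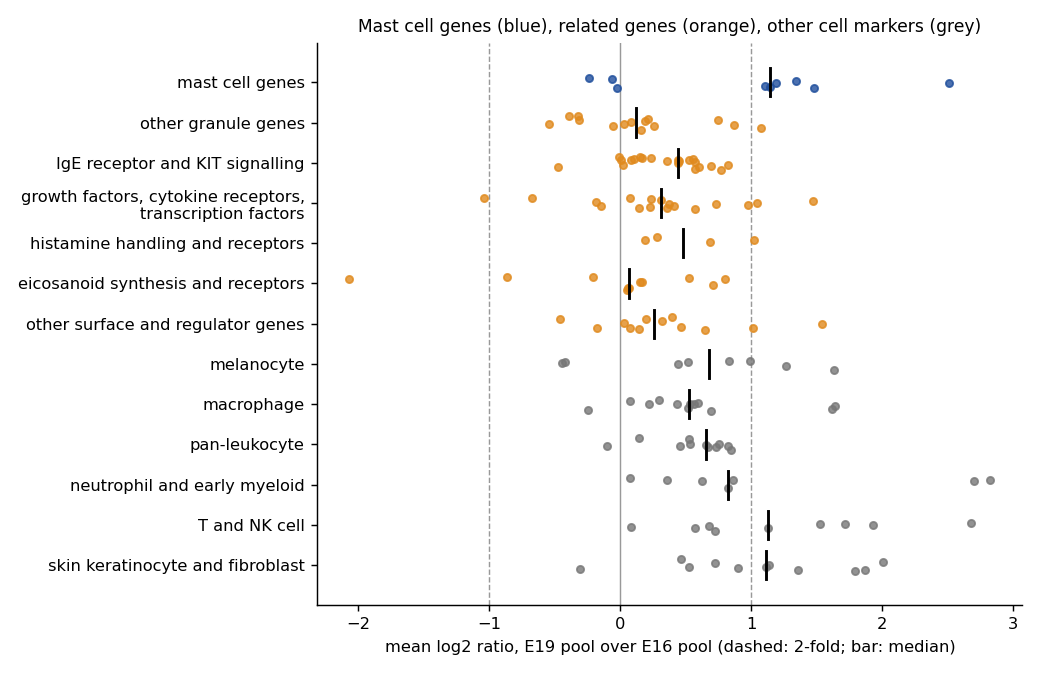
Mean log2 ratio of E19 over E16 for each detected gene of the mast cell list (blue), of the lists of related genes (orange) and of the marker lists of other cells (grey), with a bar at each median. The mast cell list forms a group above 1 and a group near 0, with a median of 1.14, while the lists of related genes have medians between 0.07 and 0.48 and the marker lists of other cells have medians between 0.53 and 1.12.

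The direction of all 6 genes called was the same on both arrays and under each of the alternatives run. Their sizes were nearest the limit for Cma1, Ms4a2 and Hdc. With median centring in place of loess, 3 of the 6 remained called (Ptgds2, Cpa3 and Tpsb2). Cma1, Hdc and Ms4a2 fell short with E19 in Cy3 at 0.59, 0.74 and 0.97. With E19 in Cy5 these genes stood at 1.55, 1.55 and 1.32, and their means were 1.07, 1.14 and 1.14. The same 3 remained when ratios were centred on the spike-in RNAs, which lowers every log2 ratio by 0.22 and turns the calls over all genes from 613 towards E19 and 554 towards E16 into 390 and 809. In the authors' deposited table, which combines the same 2 arrays, Ptgds2 was at 5.81-fold, Tpsb2 at 3.10-fold, Ms4a2 at 2.87-fold, Cpa3 at 2.74-fold, Hdc at 2.38-fold and Cma1 at 2.21-fold.

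**Figure D5:**
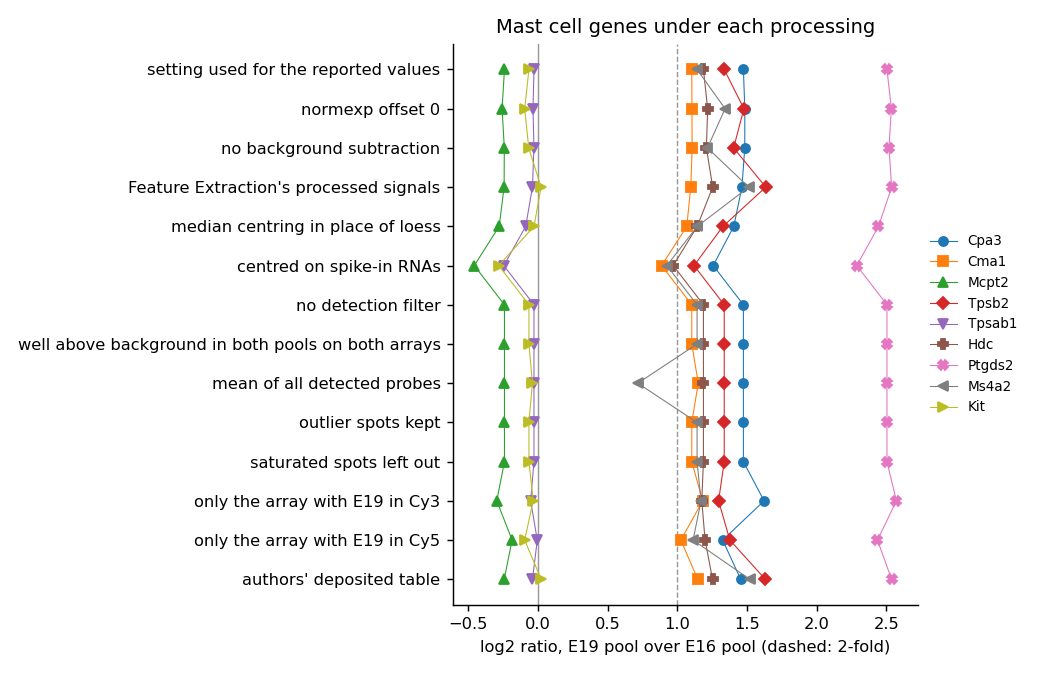
Log2 ratio of E19 over E16 of the 9 detected mast cell genes under each processing, with the reported setting at the top and a dashed line at 2-fold. Ptgds2, Cpa3 and Tpsb2 stay to the right of the line throughout, Cma1, Hdc and Ms4a2 cross it when centred on spike-in RNAs (Ms4a2 also as the mean of its probes), and Tpsab1, Kit and Mcpt2 stay below 0.03.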

How the data were processed

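RNA of the E16 and E19 skin pools was measured on 2 dye-swapped arrays that hold the same pools, so they count as 1 replicate per stage. The scanner output holds intensity values from Agilent Feature Extraction 9.5.1.1, per the file headers: uncorrected spot, local background and processed signals. A further table that the authors deposited holds 1 log10 ratio per sequence for both arrays combined. The 2 probes of Cma1 share 1 ratio there, as do the 2 of Ms4a2. How the arrays were combined is not given in the sources used here. The deposited ratios were read as E19 over E16, since over probes they correlated with the arrays turned that way (r = 0.86 with each).

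Normexp (offset 50) corrected the background and loess normalised the ratios, with control spots at weight 0, in limma 3.58.1 (R 4.3.3). Outlier spots were left out. Levels come from loess and Aquantile normalisation. The brightest detected probe stood for a gene. Of 41012 probes, 10735 were named by RefSeq accession, 5571 by symbol and 3729 by synonym (GRCr8 table), 3371 kept the file's name and 17606 had none. The steps were tested on simulated data. Python 3.11.15, numpy 2.4.6, pandas 2.3.3 and matplotlib 3.10.9 were used.

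The members and lists were chosen with earlier results of these data known. Named were all members, up to 4 called genes per list, and others as stated. Alternatives covered background, normalisation, centring, filters, probe choice, fold limit, each array alone and the authors' table.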

Additional observations from a re-analysis of the deposited data

How the results depend on the processing

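Of the 6 mast cell genes called towards E19, 3 were left with median centring in place of loess, the cause of which was not tested. Centring on spike-in RNAs left 3 and a 3-fold limit left 1, settings that lower the count by construction. When all detected probes of a gene were averaged, 5 were left, as Ms4a2 fell to 0.72. The count towards E16 was 0 under every alternative run. Of 117 values of the 9 detected genes under alternatives, 91 moved by no more than the SD of the 2 arrays and 26 moved by more. Among genes called 0 reversed, and 0 values moved by over 1.5-fold. The 91 include values that could not pass that SD. The choices on detection filter, outlier spots and saturated spots left all 9 genes unchanged, and 1 array alone always lies within the SD of the mean. The median of the 9 genes, 1.14 as reported, was 1.22 with a normexp offset of 0, 1.21 with no background subtraction, 1.25 both from Feature Extraction's processed signals and in the authors' deposited table, and 0.93 when centred on spike-in RNAs. The Kit ratio, not called, ran from -0.28 to 0.024. Of 156 list medians 4 moved by over 1.5-fold, namely those of the histamine and the T and NK cell lists with Feature Extraction's processed signals or in the authors' deposited table. No paired analysis was possible because each stage is 1 RNA pool, and both arrays lay on 1 slide. Over all 14791 genes the calls towards E19 and E16 were 613 and 554. They became 1015 and 885 from Feature Extraction's processed signals, 367 and 439 with median centring and 390 and 809 when centred on spike-in RNAs. In the authors' deposited table they were 1198 and 999, by a looser rule of 2-fold on its 1 combined ratio. Low signal over background limits Fcer1a, Kit, the dimmer Ms4a2 probe, Mcpt4 and Mitf.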

Other observations

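Granzymes are serine proteases of cytotoxic lymphocytes from the same family as the mast cell chymases, and they were looked at after the values were seen. Of 8 probes named for granzymes or cathepsin G, 6 were detected and 3 were higher in E19, beside 4.14% of all detected genes. Gzma was at 2.68 ± 0.034, Gzmk at 2.33 ± 0.12 and Gzmm at 1.31 ± 0.030. Both Gzmb probes missed the well-above-background mark in E16, and the Gzmc probe missed it in E19. From the processed signals of Feature Extraction, Gzma came to 3.81. Cathepsin G, which mast cells and neutrophils store, was not detected.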
